A study of Homo sapiens with 19 samples.

Results

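A set of 10 genes whose transcription is commonly raised by low oxygen were followed across a single-cell RNA-seq study of human liver organoids: EGLN3, NDRG1, CA9, VEGFA, ADM, SLC2A1, BNIP3, ANKRD37, PDK1 and LDHA. The members were matched by Ensembl identifier, and all 10 of 10 were found among the 58721 genes listed for the organoids called ULA and among the 32732 genes listed in every library of the organoids called OS. Organoids were made from the human pluripotent stem cell line W01, and 19 libraries in 9 groups were sequenced with the 10x 3′ v3 chemistry, which counts transcripts by unique molecular identifiers (UMIs). None of the labels names an oxygen level or a hypoxic treatment.

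The untreated ULA organoids were sequenced on day 21 (3 libraries) and on day 34 (2 libraries). All OS organoids were sequenced on day 25, in 7 groups of 2 libraries. One OS group was untreated. OS organoids grown for 20 days received TGFB1 (transforming growth factor beta 1, the cytokine used to provoke fibrosis) at 10 ng/ml or PA at 500 µM for 5 days. A further group received OA at 500 µM, for which no separate duration is stated. Each of the 3 agents has a control group of its own. PA and OA are the labels' abbreviations and are not spelled out there. All groups come from 1 cell line, and the labels do not say whether replicates were separate cultures, so p-values measure the spread between these libraries, which may be technical.

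Cells adapt to low oxygen mainly through the hypoxia-inducible factors (HIFs), in which an oxygen-sensitive alpha subunit pairs with a stable partner, ARNT. In the presence of oxygen, prolyl hydroxylases of the EGLN family mark the alpha subunit for destruction by the VHL ubiquitin ligase. In low oxygen the subunit persists, binds DNA at a short core motif and activates genes for glucose uptake, glycolysis, acid handling, blood vessel growth and the removal of mitochondria. In the liver the oxygen supply falls along the lobule, so parts of this programme are part of normal physiology. Several targets also respond to growth factors and to metabolic signals.

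The HIF core motif is RCGTG, in which R is A or G, and it was searched as ACGTG and GCGTG on both strands. A palindrome CACGTG therefore counts as 2 matches, 1 per strand. RefSeq promoter windows of 300 bases on GRCh38.p14, from 250 bases before to 50 bases after the start of transcription, were found for 8 of the 10 genes; VEGFA and NDRG1 had none. PDK1 and LDHA have 2 windows each. At least 1 match was present in 8 of these 10 windows (80.0%), in 7 of the 8 genes, against 48.45% of 35116 windows of the same length in the whole table. EGLN3 had 0 matches, CA9, SLC2A1 and ADM had 1 each, and PDK1 had 0 in one window and 2 in another. There were 3 windows with at least 3 matches, as in 10.08% of all windows, and their bases 250 to 51 before the start are printed with the matches in capitals. These genes were ANKRD37 (chr4:185396591-185396790, plus strand, 3 matches), BNIP3 (chr10:131981974-131982173, minus strand, 6 matches) and LDHA (chr11:18394313-18394512, plus strand, 5 of the window's 6 matches).
ANKRD37: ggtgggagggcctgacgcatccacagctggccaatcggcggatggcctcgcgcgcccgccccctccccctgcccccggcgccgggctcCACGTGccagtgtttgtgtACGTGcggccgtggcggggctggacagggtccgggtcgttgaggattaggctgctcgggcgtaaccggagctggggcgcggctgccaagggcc
BNIP3: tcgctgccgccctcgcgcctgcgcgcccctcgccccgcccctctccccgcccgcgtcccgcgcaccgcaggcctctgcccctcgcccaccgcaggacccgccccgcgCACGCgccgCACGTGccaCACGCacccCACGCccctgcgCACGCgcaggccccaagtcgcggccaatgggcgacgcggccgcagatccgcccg
LDHA: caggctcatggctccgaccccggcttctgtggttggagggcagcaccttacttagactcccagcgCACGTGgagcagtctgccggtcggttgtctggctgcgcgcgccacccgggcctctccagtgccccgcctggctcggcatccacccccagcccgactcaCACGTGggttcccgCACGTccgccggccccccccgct
The CACGTG palindrome is present in all 3, singly in ANKRD37 and BNIP3 and at 2 places in LDHA. It is in no other member window and in 7.26% of the 35116 windows. Each palindrome counts as 2 matches, so choosing windows by their matches favours those that hold it. BNIP3 carries a cluster of CACGC letters, the reverse complement of GCGTG, within a short stretch. A match describes the letters of a window and is no evidence of binding. By the GENCODE v44 annotation of GRCh38 the gene bodies of these 3 genes run over chromosome 4 from 185396021 to 185400628 (ANKRD37), chromosome 10 from 131967684 to 131981967 (BNIP3) and chromosome 11 from 18394560 to 18408425 (LDHA).

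Levels are given as CPM, the UMIs of a gene per 1000000 UMIs summed over a library's kept cells. A cell was kept if 500 or more genes were detected in it and mitochondrial genes took no more than 20% of its UMIs. Between 3089 and 12427 cells per library were kept, holding between 6880807 and 91184130 UMIs. The median UMI count per kept cell ran from 1310 to 14304.5, the highest in day 34 ULA replicate 1, and the median mitochondrial share from 3.89% to 11%. Any pair of libraries shared 1 to 32 cell barcodes, at most 0.581% of the smaller library. In a sum over a library, fewer cells of a type and less RNA per cell cannot be told apart. ULA and OS matrices list different gene sets, so their levels are given side by side without a test, and levels are not compared between genes because a 3′ method does not count transcripts per length. LDHA and BNIP3, like PGK1 and GAPDH among the other glycolysis genes, have near-identical pseudogene copies elsewhere in the genome, which makes their counts uncertain.

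The liver label was checked against hepatocyte markers. Albumin (ALB) ran from 4.16 to 5.32 CPM on day 21 and from 0.0385 to 0.307 on day 34 of ULA culture. With TGFB1 it ran from 0.102 to 0.136 against 3.14 to 3.35 in its control. It ran from 300 to 685 with OA and from 7.25 to 88.8 in the other OS groups. On day 21 AFP ran from 315 to 459 CPM and APOA1 from 693 to 768. With TGFB1, AFP (79.0 to 88.6 against 431 to 521) and TTR (165 to 197 against 380 to 546) were also lower. APOA1 (76.2 to 95.6 against 71.6 to 171) and HNF4A (28.8 to 33.0 against 29.3 to 45.1) overlapped the control. The summed level of 12 hepatocyte markers was 2744, 2366 and 2608 CPM on day 21, 96.4 in day 34 replicate 1 and 846 in day 34 replicate 2. Of the 12 markers, 6 were below 1 CPM in day 34 replicate 1, 3 in replicate 2 and 2 on day 21. The 2 day 34 libraries also differed from each other in cell makeup: clusters led by squamous epithelial markers held 0.79% of the cells of replicate 1 and 32.5% of those of replicate 2. Since these libraries stand apart, each of their values is given separately before any joint test.

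The 10 genes were high in day 34 ULA replicate 1 and in no comparable way in replicate 2. EGLN3, the prolyl hydroxylase that is itself induced by HIF and so limits the response, stood at 14.2, 17.7 and 13.6 CPM on day 21, at 207 in day 34 replicate 1 and at 9.04 in replicate 2. Replicate 1 was 13.7 times the day 21 mean and replicate 2 was 0.595 times it. The replicates therefore lay on opposite sides of the day 21 libraries, and the ratio between them was 23.0.

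Genes of glucose uptake and pyruvate handling followed the same order in replicate 1. SLC2A1, which encodes the glucose transporter GLUT1, measured 111, 122 and 89.7 CPM on day 21, 954 in day 34 replicate 1 and 158 in replicate 2. It was the only member for which both day 34 libraries exceeded all 3 day 21 libraries; 34.5% of the 15336 genes at 1 CPM or more behaved in that way. LDHA, the lactate dehydrogenase subunit that turns pyruvate into lactate, was at 583, 839 and 612 CPM on day 21, 1083 in replicate 1 and 190 in replicate 2. Its excess in replicate 1, 1.60 times the day 21 mean, was the smallest of the 10, and its level in replicate 2 was 0.28 times that mean. PDK1, the kinase that shuts pyruvate out of the mitochondrial citric acid cycle, was at 12.9, 24.4 and 14.7 CPM on day 21, 53.7 in replicate 1 and 8.20 in replicate 2.

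CA9, a cell-surface carbonic anhydrase that handles acid and is among the most HIF-dependent genes, had the widest gap. It had 61, 133 and 61 UMIs on day 21 (0.691, 1.95 and 0.742 CPM), 1172 UMIs in day 34 replicate 1 (15.1 CPM) and 16 UMIs in replicate 2 (0.175 CPM). The ratio of the 2 day 34 libraries was 85.8, although both were sequenced deeply. 

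The secreted factors behaved alike in replicate 1 and differed in replicate 2. VEGFA, the endothelial growth factor, was at 32.0, 36.9 and 26.9 CPM on day 21, 216 in replicate 1 and 21.7 in replicate 2. ADM, which encodes the vasodilator peptide adrenomedullin, was at 8.45, 7.67 and 6.79 CPM on day 21, 117 in replicate 1 and 7.34 in replicate 2. ADM had the highest ratio of replicate 1 to the day 21 mean, 15.4, while replicate 2 lay inside the day 21 range at 0.961 times the mean.

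Among the remaining members, BNIP3, a mitochondrial outer membrane protein that promotes mitophagy, measured 117, 236 and 102 CPM on day 21, 513 in replicate 1 and 27.2 in replicate 2. NDRG1, a stress-responsive cytoplasmic protein, was at 102, 112 and 77.9 CPM on day 21, 272 in replicate 1 and 21.2 in replicate 2. ANKRD37, an ankyrin-repeat protein used as a marker of HIF activity, was at 6.24, 13.3 and 5.63 CPM on day 21, 74.1 in replicate 1 and 7.34 in replicate 2. BNIP3 and NDRG1 were lowest of the 5 libraries in replicate 2, at 0.179 and 0.219 times the day 21 mean, whereas ANKRD37 stayed within the day 21 range there.

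Counted over the list, day 34 replicate 1 lay above every day 21 library for 10 of 10 members, against 47% of all genes at 1 CPM or more. Replicate 2 lay below every day 21 library for 7 of 10, against 27% of all genes. Replicate 1 was above replicate 2 for 10 of 10, against 46.3%. The median ratio to the day 21 mean was 7.81 in replicate 1 and 0.534 in replicate 2 over the members, and 1.08 and 1.10 over all genes. The members were chosen with earlier results of these data known, and the day 34 libraries were set apart because they disagreed. These counts and medians therefore describe the 2 libraries and do not test the members. Replicate 1 held the highest level of all 19 libraries for 9 of the 10 genes. The exception was VEGFA, which was higher in both control libraries of the TGFB1 series. No share of all genes was counted for this rank. It also sets ULA beside OS libraries, whose matrices list different gene sets.

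**Figure D1:**
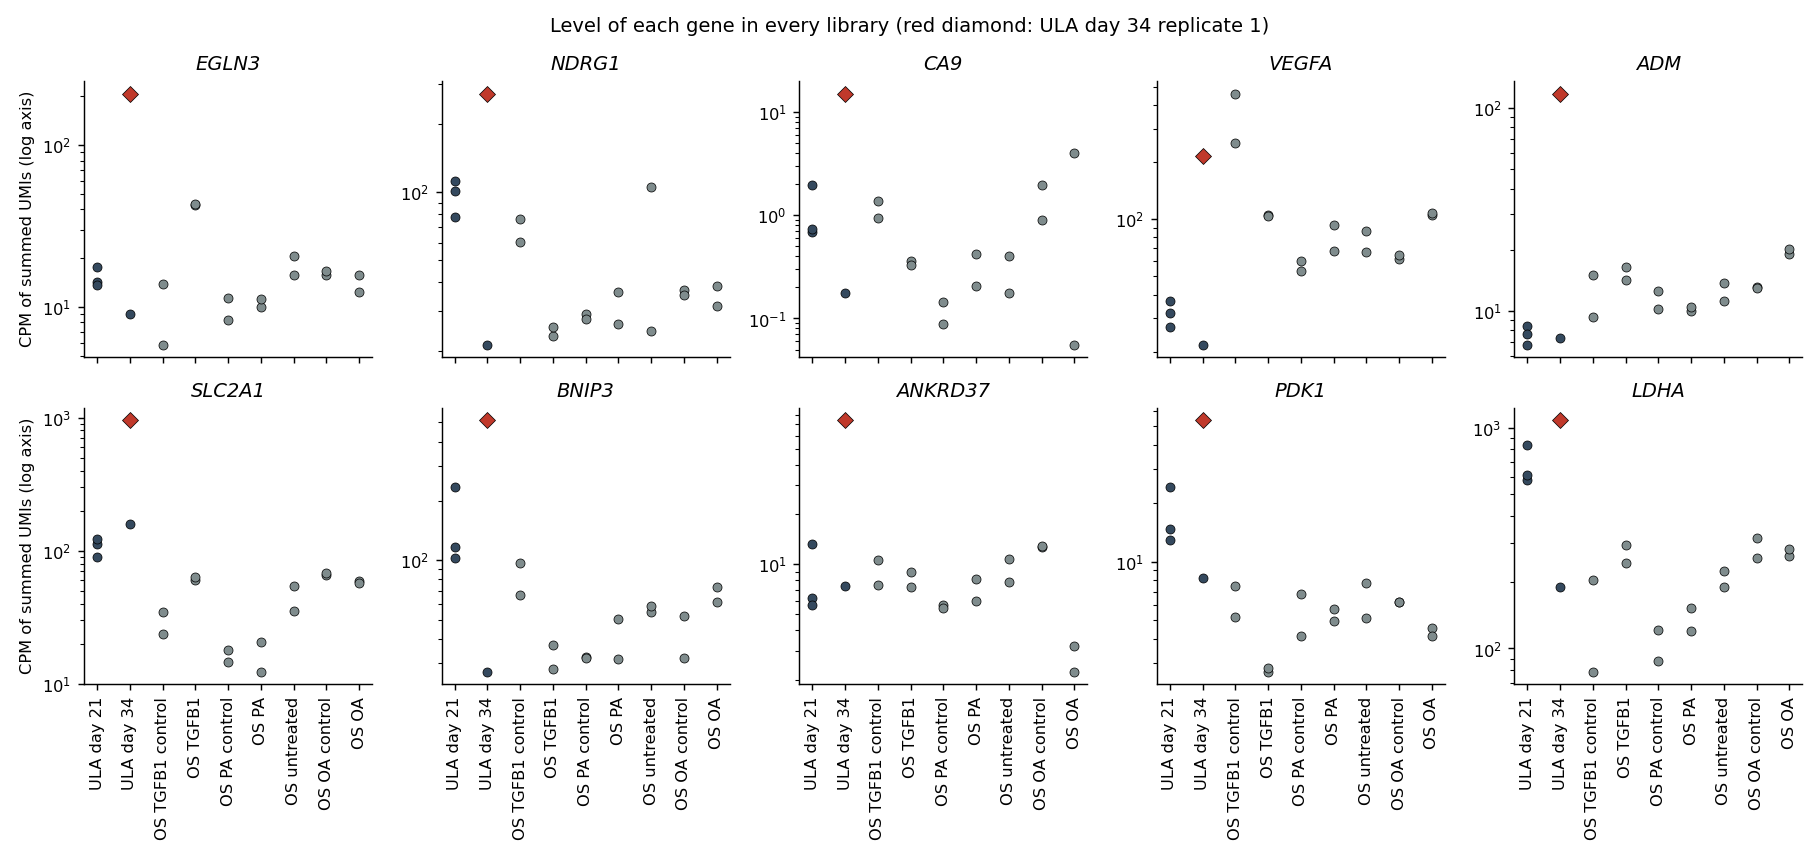
Level of each of the 10 genes in each library (CPM of summed UMIs, log axis) by group, 1 point per library, with day 34 ULA replicate 1 drawn as a red diamond. That library is the highest point of 9 panels, with SLC2A1 at 954 and EGLN3 at 207, while VEGFA peaks at 459 in a TGFB1 control library.

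Joint testing of the 2 day 34 libraries against the 3 day 21 libraries with edgeR's quasi-likelihood test left 1 of the 10 members past an adjusted p of 0.05, where 15.6% of all 22261 genes passed and 8.43% were called higher. SLC2A1 rose, with a log2 fold change of 2.24 ± 0.61 (SE, adjusted p = 0.0481). ADM had a log2 fold change of 2.90 ± 0.87 (adjusted p = 0.0636) and EGLN3 one of 2.70 ± 0.95 (adjusted p = 0.0982), and 5 of the 10 had an unadjusted p under 0.05, as did 7303 of the 22261 genes. LDHA had the lowest value, -0.23 ± 0.61 (adjusted p = 0.83). The SLC2A1 call was lost when any 1 of the day 21 libraries or day 34 replicate 1 was left out and with the mean over cells in place of the sum, with an adjusted p of up to 0.309 over the alternatives.

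Each day 34 library was then set alone against day 21. A lone library has no spread of its own, so log2 fold changes are given without a test. In replicate 1 they ran from 0.52 for LDHA and 1.34 for NDRG1 to 3.80 for ADM, with EGLN3 at 3.62 and SLC2A1 at 3.00. In replicate 2 CA9 was at -2.79, BNIP3 at -2.60, NDRG1 at -2.32, LDHA at -1.96, PDK1 at -1.20 and EGLN3 at -0.87. VEGFA was at -0.68 there, ANKRD37 at -0.31, ADM at -0.18 and SLC2A1 at 0.44. The sign of the joint change for most members therefore rested on which day 34 library was used.

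**Figure D2:**
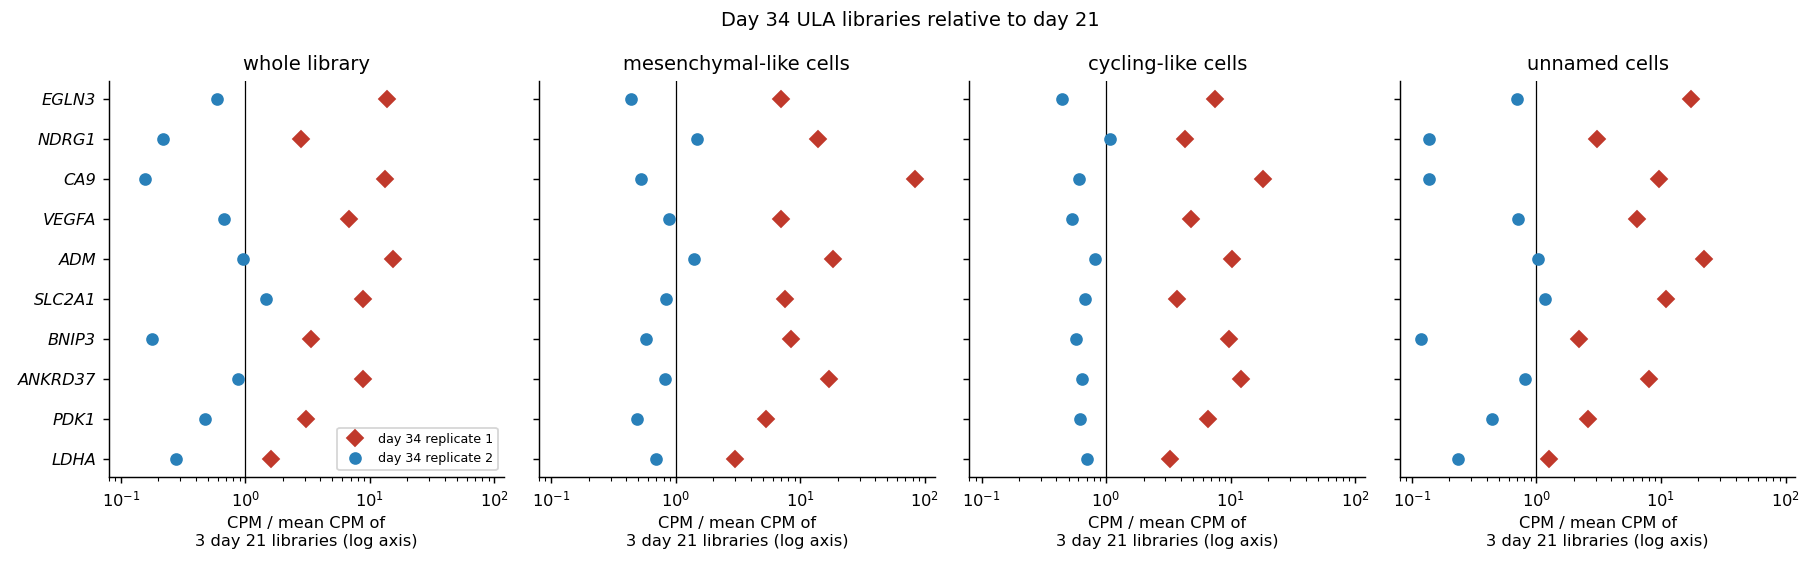
Ratio of each day 34 ULA library to the mean of the 3 day 21 libraries (log axis) for each of the 10 genes, over the whole library and within mesenchymal-like, cycling-like and unnamed cells. In the whole library replicate 1 lies between 1.60 (LDHA) and 15.4 (ADM), and replicate 2 between 0.155 (CA9) and 1.47 (SLC2A1).

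Other genes of the pathway were read from lists of related genes. All these lists, here and below, were chosen with earlier results of these data known. Their counts beside all genes are descriptions and no independent support. The HIF factors differed among themselves. HIF1A, the main alpha subunit, was 1.12 times the day 21 mean in replicate 1 and 1.33 times in replicate 2, and EPAS1, the HIF2 alpha subunit, was 1.12 and 1.16 times. HIF3A, a further alpha subunit, was 6.86 and 4.46 times, above every day 21 library in both. EPAS1 rose in mesenchymal-like cells, defined further on, by 2.04 ± 0.28 on the log2 scale over both day 34 libraries (edgeR adjusted p = 0.00101), and by 1.94 more than in the other cells (adjusted p = 0.000316). Both calls held without any 1 library but not with a finer clustering (leiden resolution 1.0), where EPAS1 was at -0.27 ± 0.33 in mesenchymal-like cells and the difference at -0.20 ± 0.24. Over the 10 factors and regulators the median ratios were 1.36 and 1.24. Of 25 other hypoxia targets, 24 were above every day 21 library in replicate 1, with a median ratio of 2.97, and 17 were below every day 21 library in replicate 2, with a median of 0.722, against 47% and 27% of all genes. NDUFA4L2, a mitochondrial protein, was 22.4 times the day 21 mean in replicate 1 and 1.16 times in replicate 2, and HILPDA, a lipid droplet protein, was 4.61 and 0.807 times. CA12, STC2 and AK4 were 1.11, 1.80 and 2.22 times the day 21 mean in replicate 1 and 0.183, 0.390 and 0.499 times in replicate 2.

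Glycolysis enzymes and lactate transporters lay on the same sides by smaller ratios. Of 18, 17 were above every day 21 library in replicate 1 (median ratio 1.73) and 15 were below every one in replicate 2 (median 0.578), against 47% and 27% of all genes. PGK1 was 2.34 times the day 21 mean in replicate 1 and 0.564 times in replicate 2, and GAPDH was 1.25 and 0.687 times. LDHB, the partner subunit of LDHA, was the 1 gene of this list called lower in replicate 1, at -1.62 (log2), and it was also called lower in replicate 2, at -1.26. By the test, 7 of the 18 rose in replicate 1 (HK1 by 1.96, PFKP by 1.81 and ENO2 by 2.34 among them) and 10 fell in replicate 2, against 15.9% of all genes higher and 9.38% lower.

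The control of pyruvate dehydrogenase, the enzyme that PDK1 inhibits, had 3 of 10 genes above every day 21 library in replicate 1, against 47% of all genes, and 6 of 10 below every one in replicate 2, against 27%. The median ratios were 0.78 and 0.807, and PDK4, the starvation-responsive kinase, was 0.546 times the day 21 mean in replicate 1 and 1.54 times in replicate 2. In the list of VEGF and adrenomedullin ligands and receptors the medians were 2.29 and 1.11, with VEGFC, the lymphatic growth factor, at 10.7 and 2.05 times. A list of 12 dissociation and immediate early genes had medians of 3.59 and 2.05, with 9 of the 12 above every day 21 library in replicate 1 and 10 in replicate 2, against 7204 and 7346 of the 15336 genes. Day 34 organoids had an extra wash and a further trypsin step that day 21 organoids did not have, and the summed level of these 12 genes was 1323, 638 and 1305 CPM on day 21, 4135 in replicate 1 and 2673 in replicate 2. Their part in the levels of the 10 genes was not tested.

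**Figure D3:**
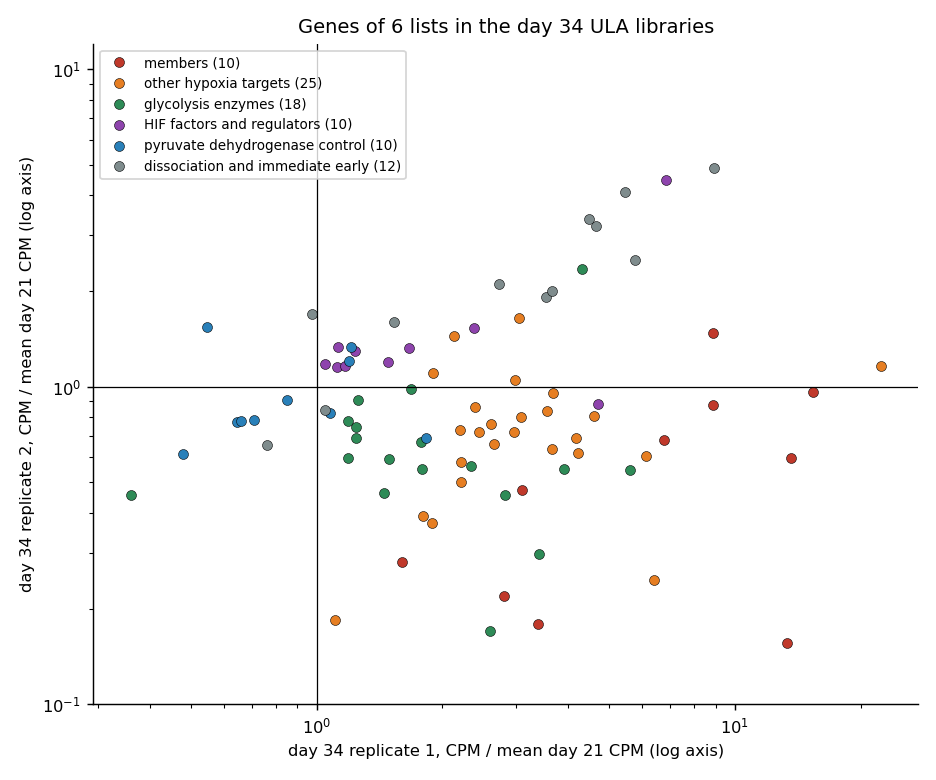
Ratio to the day 21 mean in day 34 ULA replicate 1 (x axis) and replicate 2 (y axis), both log axes, 1 point per gene for the 10 genes and 5 of the related lists. The 10 genes lie to the right, with a median of 7.81 in replicate 1 and 0.534 in replicate 2, and HIF1A and EPAS1 lie near 1 on both axes.

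Cells of the ULA libraries were clustered, and clusters were called mesenchymal-like or cycling-like from marker genes. These names were rebuilt here and are not the submitters'. Most mesenchymal-like cells belonged to cluster 0 on day 21 and to cluster 3 on day 34, which held 1764 cells of replicate 1 and 2134 of replicate 2. Cycling-like cells were mostly of cluster 1 on day 21 and of cluster 2 on day 34. The unnamed class also differed in clusters: numbers 4 to 7 on day 21, numbers 9, 12, 13 and 14 in day 34 replicate 1, and numbers 9, 13 and 14 with 982, 116, 151 and 53 cells of 4 to 7 in replicate 2. Mesenchymal-like cells made up 20.6% to 34.6% of the day 21 libraries, 41.4% of day 34 replicate 1 and 17.4% of replicate 2. These shares depend on the clustering. With leiden resolution 1.0 the class held 811 cells of day 34 replicate 1 instead of 1789, and 1606 of replicate 2 instead of 2166. On day 21 it held 1438, 1988 and 1388 cells instead of 1322, 1848 and 1296.

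The excess of day 34 replicate 1 was present in each of these classes. In mesenchymal-like cells all 10 members were above every day 21 library in replicate 1, where 43.5% of genes were. In cycling-like cells all 10 were (45.7% of genes), and in the unnamed clusters 9 of 10 were (47% of genes), LDHA being the exception. In all 3 classes every member was higher in replicate 1 than in replicate 2, as were 46.1%, 50.6% and 42.3% of genes in turn. The limit given for the counts over whole libraries holds here too.

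Within mesenchymal-like cells BNIP3 was at a mean of 65.0 CPM on day 21, 545 in replicate 1 and 37.5 in replicate 2. CA9 was at 14.4 CPM in replicate 1 and ANKRD37 at 55.9, against 2.73 for ANKRD37 in replicate 2. In the unnamed clusters SLC2A1 reached 1679 CPM in replicate 1 against a day 21 mean of 152, and 177 in replicate 2. The members were also higher in replicate 1 in each of the 5 single clusters with at least 50 cells of both day 34 libraries (2, 3, 9, 13 and 14): in cluster 9 SLC2A1 was at 1752 CPM in replicate 1 and 279 in replicate 2, and ADM was at 318 and 12.7. The share of all genes higher in replicate 1 was not counted inside single clusters. A further cluster, number 12, drew 994 of its 998 cells from replicate 1, and SLC2A1 stood there at 1970 CPM and EGLN3 at 395.

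Tested in mesenchymal-like cells, 4 of the 9 members that passed the low-count filter rose over both day 34 libraries, where 17.6% of genes were called and 10.6% were higher: NDRG1 by 2.82 ± 0.68, VEGFA by 1.88 ± 0.58, ADM by 3.21 ± 0.73 and ANKRD37 by 3.01 ± 0.85 on the log2 scale (edgeR adjusted p between 0.0136 and 0.0459). In all other cells 2 of 10 rose (20.2% called, 10.7% higher), ADM by 3.21 ± 0.93 and SLC2A1 by 2.59 ± 0.69. All 6 of these calls were lost without day 34 replicate 1, each was also lost without at least 1 of the day 21 libraries, and all but ANKRD37 were lost with a finer clustering (leiden resolution 1.0). NDRG1 was lost without day 21 replicate 1 or 3, ADM in mesenchymal-like cells without day 21 replicate 2 or 3, and the other 4 without any 1 of the 3 day 21 libraries. Without day 34 replicate 1, VEGFA in mesenchymal-like cells was -0.35, ANKRD37 was -0.50 and ADM in the other cells was -0.26. The lowest values with 1 library left out were 0.36 for NDRG1 and 0.31 for ADM in mesenchymal-like cells, and 0.40 for SLC2A1 in the other cells.

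The change from day 21 to day 34 differed between mesenchymal-like and other cells for 6 of 10 members by the interaction term of edgeR, with the library as a block, where 12.6% of genes differed, 7.75% with a higher and 4.81% with a lower effect in mesenchymal-like cells. It was more positive in mesenchymal-like cells for CA9 (by 2.76 ± 0.51 on the log2 scale), NDRG1 (2.35 ± 0.28), BNIP3 (1.72 ± 0.13) and LDHA (1.30 ± 0.13), with adjusted p between 6.4e-05 and 0.00621. CA9 was near 0 in those cells outside day 34 replicate 1, so the size of its difference is uncertain. It was at a mean of 0.17 CPM on day 21 and at 0.09 in day 34 replicate 2, against 14.4 in replicate 1. The change was less positive there for EGLN3 (-1.05 ± 0.20, adjusted p = 0.00855) and SLC2A1 (-0.66 ± 0.12, adjusted p = 0.00682). Without day 34 replicate 1 the EGLN3 and CA9 differences were lost, EGLN3 was also lost without day 21 replicate 1 or 2, and CA9 was also lost with the finer clustering. The other 4 differences held in all 6 alternatives run for them, which were each library left out and the finer clustering.

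TGFB1, against its own control, raised some of the 10 genes and lowered others. EGLN3 was at 42.7 and 43.2 CPM with TGFB1 and at 5.82 and 13.8 in the control, so the groups did not overlap. It rose by 2.25 ± 0.34 on the log2 scale (edgeR adjusted p = 0.000434). SLC2A1 was at 60.7 and 63.0 CPM with TGFB1 and at 34.8 and 23.7 in the control, and rose by 1.30 ± 0.27 (adjusted p = 0.00475).

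TGFB1 lowered 3 members. VEGFA was at 106 and 103 CPM with TGFB1 and at 459 and 252 in the control, which held the 2 highest VEGFA levels of the 19 libraries, and fell by 1.54 ± 0.25 on the log2 scale (adjusted p = 0.000798). BNIP3 was at 37.2 and 28.2 CPM with TGFB1 and at 66.3 and 96.4 in the control, and fell by 1.14 ± 0.29 (adjusted p = 0.0149). PDK1 was at 2.70 and 2.81 CPM with TGFB1 and at 7.52 and 5.18 in the control, and fell by 0.98 ± 0.31 (adjusted p = 0.0381). Neither group overlapped the other for these genes.

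Called members therefore numbered 5 of 10, where 22.2% of 19366 genes were called, 10.9% higher and 11.3% lower. LDHA was at 294 and 244 CPM with TGFB1 and at 78.5 and 205 in the control (log2 fold change 1.07 ± 0.37, adjusted p = 0.052), and NDRG1 was at 23.1 and 25.5 against 76.1 and 60 (-1.28 ± 0.47, adjusted p = 0.0697). ADM, CA9 and ANKRD37 did not pass, at 0.56 ± 0.21, -1.59 ± 1.11 and 0.07 ± 0.24. The groups did not overlap for 8 of 10 members, against 69.4% of genes at 1 CPM or more, a level that CA9 did not reach here. The EGLN3, SLC2A1 and VEGFA calls held in all 12 alternatives. The BNIP3 call was lost without control replicate 2 or TGFB1 replicate 2 (adjusted p up to 0.131) and the PDK1 call without control replicate 1 or either TGFB1 replicate (up to 0.192), and scaling to library sizes without TMM turned ANKRD37 to -0.14. NDRG1 passed with that scaling (adjusted p = 0.0258), with DESeq2 (0.0268), with the mean over cells (0.0305), without the low-count filter and in a fit of the 2 groups alone. LDHA passed with DESeq2 (adjusted p = 0.0167), with the mean over cells (0.036), without the filter and without control replicate 2 (where it was at 2.09, against 0.49 without control replicate 1), CA9 without the filter and in the 2 groups alone, and ADM without control replicate 1. Scaling to library sizes moved the median of all genes from -0.05 to -0.24 and the share of calls that were higher from 49% to 31.6%.

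Lists of related genes are read against the 10.9% of all genes called higher and the 11.3% called lower with TGFB1. Among them, 4 of 10 HIF factors and regulators fell with TGFB1, among them HIF3A (by 2.04), EGLN2 (by 1.76) and ARNT2 (by 1.05). Of 25 other hypoxia targets 7 rose, LOX (by 1.95) and P4HA2 (by 1.95), both enzymes of collagen maturation, and the stress protein DDIT4 (by 1.18) among them, and 2 fell. Among 18 glycolysis genes 3 rose (PFKP by 2.12, PKM by 0.93 and PGAM1 by 0.74) and 2 fell (PFKL by 1.13 and PFKM by 0.66). Of the VEGF and adrenomedullin axis, 4 of 9 tested genes rose, NRP2 by 2.02, FLT1 by 1.83 and VEGFB by 0.72 among them, while VEGFA fell. PDK4 was the 1 of 10 pyruvate dehydrogenase control genes called and fell by 0.89, in the same direction as PDK1.

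The makeup of the TGFB1 libraries moved with these changes. One cluster with duct markers, cluster 9, held 67.0% and 80.6% of the cells with TGFB1 and 0.38% and 3.42% in the control, and cycling-like cells were 0.37% and 0.17% against 20.0% and 16.7%. Within cluster 9 EGLN3 was at 48.5 and 48.9 CPM with TGFB1 and at 48 in the 291 cells of control replicate 2, and SLC2A1 was at 63.4 and 67.7 against 76.2. VEGFA was at 112 and 112 CPM there against 246, BNIP3 at 31.6 and 22.5 against 145, and PDK1 at 2.5 and 2.5 against 7.6. Control replicate 1 had too few cells there, and with 1 control library no test was run. EGLN3 and SLC2A1 did not stand higher with TGFB1 inside cluster 9, and VEGFA, BNIP3 and PDK1 stood lower. In the unnamed clusters, by contrast, EGLN3 was at 30.7 and 26.3 CPM with TGFB1 and at 4.58 and 11.6 in the control, and SLC2A1 was at 59.8 and 43.1 against 31.8 and 19.4. That class was made mostly of clusters 6 and 7 with TGFB1 and of clusters 0, 1 and 2 in the control. In cluster 1, the one unnamed cluster with at least 50 cells of all 4 libraries, EGLN3 was at 32.8 and 10.4 CPM against 5.1 and 11.2, which overlap, and SLC2A1 at 36.1 and 36.3 against 29.9 and 19.3, which do not.

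The 2 control libraries of TGFB1 also differed from each other in clusters, with 5192 and 267 cells in cluster 0 and 375 and 5568 in cluster 1. They differed in depth too. Control replicate 1 had a median of 1310 UMIs per cell, against 5635 in control replicate 2 and 7092.5 and 5201.5 with TGFB1. The median was 1183.5 in cluster 0 of control replicate 1 and 5532.5 in cluster 1 of control replicate 2. The part of depth in these clusters and in the VEGFA level of 459 CPM in control replicate 1 was not tested. Over the 12 alternatives, which include leaving out each of the 4 libraries, EGLN3 lay between 1.73 and 3.19, SLC2A1 between 0.98 and 1.48 and VEGFA between -1.83 and -1.18.

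Mesenchymal-like cells, all of cluster 4 and between 361 and 780 per library, showed none of these calls. In them 0 of the tested members passed with TGFB1, where edgeR called 1.09% of 13303 genes, although VEGFA and LDHA had an unadjusted p of 0.00732 and 0.0281. EGLN3 was at 0.45 ± 0.35 there and SLC2A1 at -0.15 ± 0.27. In the other cells 7 of 10 members passed, where 23.7% of genes did, 11.6% higher and 12.1% lower: EGLN3 rose by 2.42 ± 0.35, SLC2A1 by 1.45 ± 0.27, LDHA by 1.10 ± 0.37 and ADM by 0.65 ± 0.21, and VEGFA, BNIP3 and PDK1 fell by 1.49 ± 0.24, 1.32 ± 0.31 and 1.08 ± 0.30. The LDHA call was lost without control replicate 1 or either TGFB1 replicate, its value running from 0.51 without control replicate 1 to 2.13 without control replicate 2, and the ADM call without control replicate 2 or either TGFB1 replicate and with the finer clustering. BNIP3 and PDK1 were lost without the libraries named for the whole-library calls.

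The difference between the compartments was tested directly. It passed for 5 of 10 members, where 10.9% of genes passed, 4.13% with a higher and 6.73% with a lower effect in mesenchymal-like cells. The TGFB1 effect was lower in mesenchymal-like than in other cells for EGLN3 (-1.78 ± 0.27, edgeR adjusted p = 4.8e-05) and SLC2A1 (-1.60 ± 0.17, adjusted p = 2.9e-07), and higher for BNIP3 (1.51 ± 0.17, adjusted p = 1.4e-06), NDRG1 (1.12 ± 0.21, adjusted p = 0.000566) and VEGFA (0.64 ± 0.20, adjusted p = 0.0423). The VEGFA difference was lost without control replicate 2 or TGFB1 replicate 1 and with the finer clustering. The other 4 held in all 5 alternatives run for them, which were each library left out and the finer clustering.

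**Figure D4:**
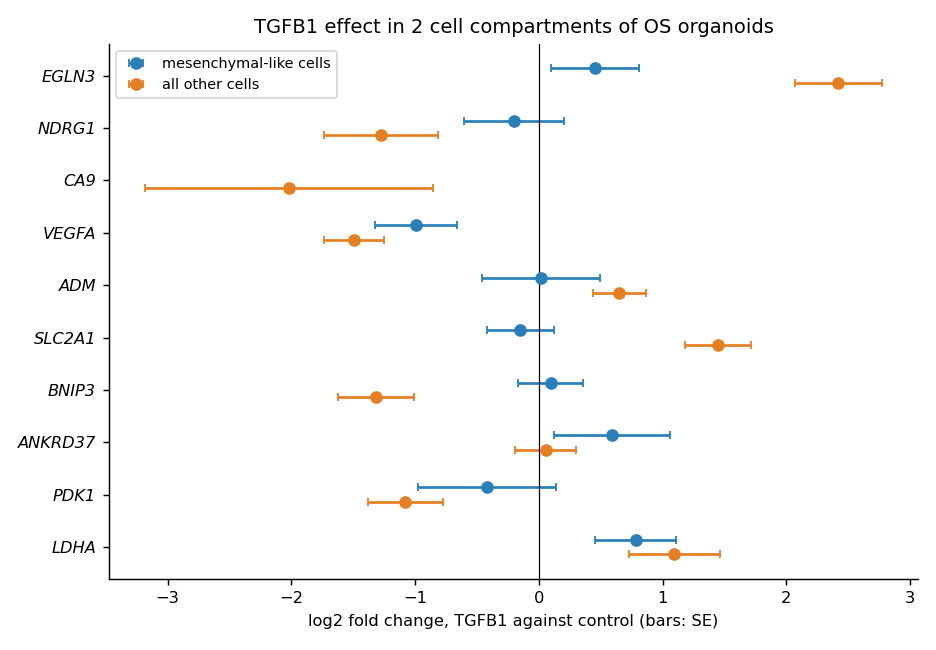
Log2 fold change with TGFB1 (± SE) of each of the 10 genes in mesenchymal-like cells and in all other cells, CA9 not being tested in the former. EGLN3 stands at 0.45 in mesenchymal-like and 2.42 in other cells, and SLC2A1 at -0.15 and 1.45.

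OA was set against its own control. VEGFA was at 105 and 107 CPM with OA and at 61.9 and 64.4 in the control, and rose by 1.08 ± 0.25 on the log2 scale (edgeR adjusted p = 0.00342). ADM was at 19.1 and 20.2 CPM with OA and at 13.1 and 13 in the control, and rose by 0.93 ± 0.21 (adjusted p = 0.00328). Both secreted factors were higher in each OA library than in each control library, with little spread inside a group.

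ANKRD37 went the other way. It was at 2.24 and 3.20 CPM with OA and at 12.7 and 12.9 in the control, and fell by 1.91 ± 0.25 (adjusted p = 6.9e-05). BNIP3 was at 73.5 and 61.1 CPM with OA and at 32.0 and 52.2 in the control, and rose by 1.03 ± 0.29 (adjusted p = 0.0123). In these 4 genes the groups did not overlap.

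The remaining 6 genes did not pass. CA9 was at 0.0555 and 4.0 CPM with OA (3 and 209 UMIs) and at 0.895 and 1.97 in the control, so that its 2 OA libraries bracketed the control. EGLN3 was at 12.3 and 15.7 CPM with OA and 15.8 and 16.7 in the control (log2 fold change 0.12 ± 0.32), and SLC2A1 at 59.3 and 57.2 against 66.1 and 68.5 (0.13 ± 0.27). For both, CPM were lower with OA while the TMM-scaled change was above 0, and library sizes without TMM turned EGLN3 to -0.22, SLC2A1 to -0.21, NDRG1 to -0.04 and LDHA to -0.08.

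The OA count of 4 of 10 members stands beside 43.3% of all genes called, 21.7% higher and 21.6% lower, so the members were called about as often as other genes. Groups did not overlap for 7 of 10, against 85.9% of genes. Scaling to library sizes left 2 of the 4 calls, VEGFA at 0.74 and ANKRD37 at -2.24, while ADM (0.59 ± 0.24, adjusted p = 0.058) and BNIP3 (0.68 ± 0.28, adjusted p = 0.0656) were lost. That scaling moved the median of all genes from -0.08 to -0.42 and the share of calls that were higher from 50.1% to 30.6%. BNIP3 was also lost with the mean over cells in place of the sum and without OA replicate 1 or control replicate 1 (adjusted p up to 0.138).

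Related genes are read against the 43.3% of all genes called with OA. Of 10 HIF factors and regulators 4 rose and 2 fell: HIF1A rose by 1.64, EPAS1 by 2.04 and the hydroxylase EGLN1 by 1.53, while HIF3A fell by 2.70 and ARNT2 by 1.17. Of 25 other hypoxia targets 5 rose, ERO1A (by 1.48), PLOD2 (by 1.17) and the carbonic anhydrase CA12 (by 2.33) among them, and 5 fell, LOX (by 2.90), SLC2A3 (by 2.84) and PPFIA4 (by 5.34) among them, a share near that of all genes. The 18 glycolysis genes were split 4 up and 4 down, with the hexokinase HK2 at 2.95 and the lactate transporter SLC16A3 at 1.68, against PFKM at -1.43 and ENO2 at -2.03. Of 10 pyruvate dehydrogenase control genes 5 rose and 0 fell, PDK4 by 2.79, the phosphatase PDP1 by 1.41 and DLAT by 1.22 among them. PDK1 did not pass, at -0.17 ± 0.30.

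Makeup moved with OA as well. Clusters led by gut epithelial markers held 52.6% and 44.9% of OA cells and 27.8% and 10.8% of control cells, and the summed gut marker level was 27914 and 22875 CPM against 4740 and 2423. Hepatocyte markers were higher with OA as well. ALB ran from 300 to 685 CPM against 7.25 to 21.9, AFP from 4501 to 5855 against 455 to 503. APOA1 ran from 1652 to 2559 CPM against 327 to 355, TTR from 1321 to 2412 against 351 to 543, and HNF4A from 63.5 to 71.6 against 20.2 to 53.5. Hepatocyte-like clusters held 0.42% and 0.22% of OA cells and 0.29% and 1.97% of control cells. Mesenchymal-like cells numbered 27 and 15 with OA (0.87% and 0.47%, against 18.8% and 16.7%), too few for a test inside them. Over all cells outside the mesenchymal-like clusters the same 4 members passed, where 40.9% of genes did (20.4% higher, 20.5% lower): VEGFA at 0.96 ± 0.24, ADM at 0.82 ± 0.21, BNIP3 at 1.01 ± 0.30 and ANKRD37 at -2.01 ± 0.26. VEGFA and ADM were lost without control replicate 2 (adjusted p = 0.0527 and 0.0814), and BNIP3 without control replicate 1 or OA replicate 1.

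ANKRD37 was also lower with OA in each single cluster that is set beside its control here. In cluster 0 it was at 1.0 and 3.7 CPM with OA (1 and 2 UMIs) and at 15.4 and 14.3 in the control. In cluster 7 it was at 5.1 and 3.6 (5 and 3 UMIs) against 15.4 and 20.3, and in cluster 8 at 4.6 and 2.4 (9 and 6 UMIs) against 13.5 and 16.0. Clusters 1, 3 and 5 had the same order, cluster 1 with 1 control library and cluster 5 with 1 library a group. Cluster 4 held 1523 and 1294 OA cells, with ANKRD37 at 1.7 and 3.3 CPM (59 and 103 of the 121 and 167 UMIs of the OA libraries). In cluster 9 it was at 5.3 and 11.2 CPM with OA (11 UMIs in each library). No control level is set beside clusters 4 and 9 here, so the order in them is not given. No share of all genes is given for single clusters.

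PA, in the same fit, moved none of the 10 genes past the threshold. PA control replicate 1 kept 6880807 UMIs, the fewest of the 19 libraries, with a median of 1747 per cell against 7058 in control replicate 2. PA replicate 1 had a median of 2549 against 5990 in PA replicate 2. The part of this depth in the lack of calls was not tested. edgeR called 0 members, where 0.0465% of genes passed, and 1 member, VEGFA, had an unadjusted p under 0.05 (0.0427), as did 540 of 19366 genes. VEGFA was at 92.8 and 67.6 CPM with PA and at 53 and 60.4 in the control (log2 fold change 0.55 ± 0.25, 95% interval 0.021 to 1.09). The members ranged from -0.07 for ADM to 1.63 ± 1.71 for CA9, which had 10 and 12 UMIs with PA and 1 and 4 in the control.

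Intervals show how large a PA effect could have been missed. That of EGLN3 (10.0 and 11.2 CPM with PA, 8.28 and 11.3 in the control) ran from -0.57 to 0.89 on the log2 scale, that of SLC2A1 (12.3 and 20.8, against 14.5 and 17.9) from -0.51 to 0.69 and that of LDHA (153 and 120, against 87.6 and 121) from -0.34 to 1.23. The groups did not overlap for 3 of 10 members, VEGFA, CA9 and ANKRD37, all higher with PA, against 21% of genes at 1 CPM or more in either direction and 6.94% higher; CA9 was below 1 CPM. Neither the mesenchymal-like cells (0.00752% of genes called), the other cells (0.0473%) nor the difference between them (0.418%) gave a call for a member.

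**Figure D5:**
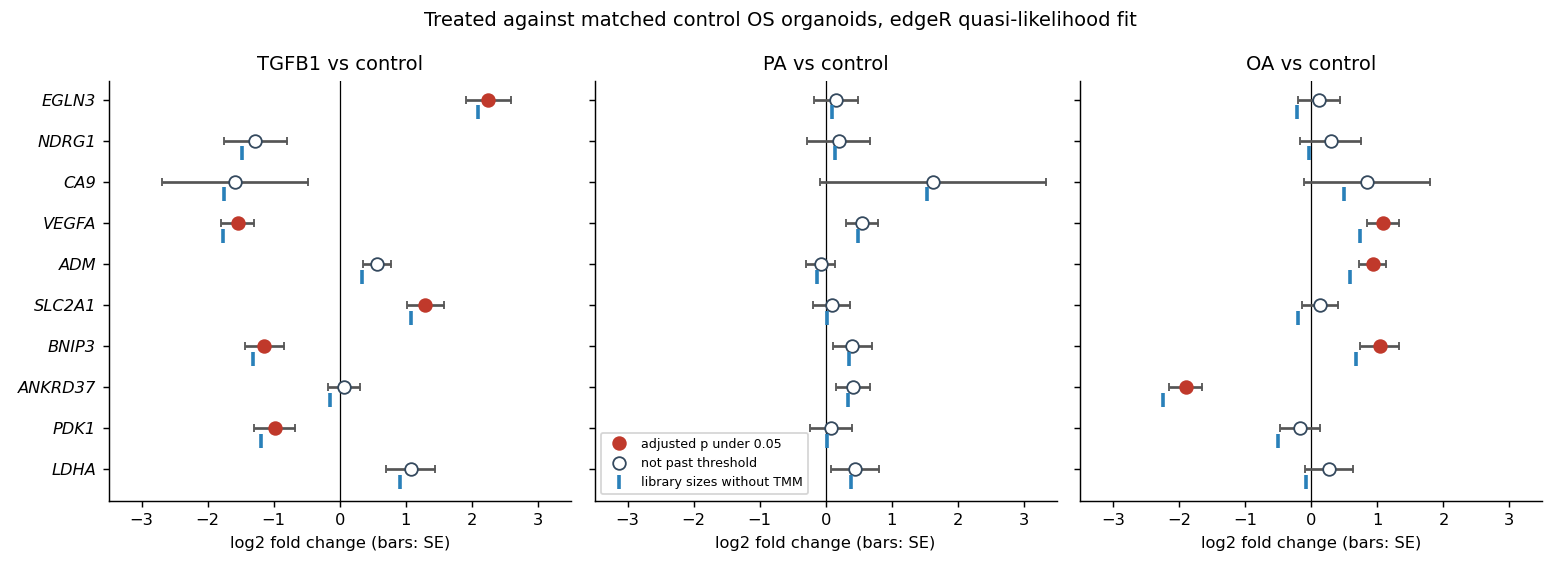
Log2 fold change (± SE) of the 10 genes with TGFB1, PA and OA, each against its own control, filled where the adjusted p is under 0.05, with a blue tick for library sizes without TMM. TGFB1 has 5 filled points from -1.54 (VEGFA) to 2.25 (EGLN3), PA has none, and OA has 4 from -1.91 (ANKRD37) to 1.08 (VEGFA).

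OA and PA were both given at 500 µM, and the difference of their effects, each against its own control, was tested in the same fit. It passed for 2 of 10 members, where 20.5% of genes passed, 10.2% higher and 10.3% lower. The OA effect was lower than the PA effect for ANKRD37, by -2.32 ± 0.36 (edgeR adjusted p = 0.000917), and this held in all 13 alternatives. It was higher for ADM, by 1.00 ± 0.30 (adjusted p = 0.0331), a call lost in 8 of the 13, namely 7 that left out 1 library each and the scaling to library sizes (adjusted p = 0.156). ANKRD37 was at 8.11 and 6.01 CPM with PA and at 5.67 and 5.43 in its control, and both PA libraries were above both control libraries.

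The OA control and the untreated OS organoids, both without an agent, gave 0 called members, where edgeR called 0.573% of genes; 3 members had an unadjusted p under 0.05, as did 2822 of 19366 genes: CA9 (2.50 ± 1.13), SLC2A1 (0.71 ± 0.27) and ANKRD37 (0.63 ± 0.24). Members called in mesenchymal-like cells, in other cells and for their difference also numbered 0, where 0.0827%, 0.746% and 0.00612% of genes passed. This comparison shares its OA control libraries with that of OA. HIF1A, which rose with OA, was at -1.21 ± 0.27 here (edgeR adjusted p = 0.0657), and EPAS1 at -0.44 ± 0.22 (adjusted p = 0.382). The highest HIF1A level of the 19 libraries, 366 CPM, was in untreated replicate 1, followed by 261 in OA replicate 1. NDRG1 was at 24.5 and 106 CPM in the 2 untreated libraries, the widest split between replicates of an OS group after CA9 with OA. The same libraries differed in gut epithelial-like cells, 6.17% and 42.4%, whose part in the NDRG1 level was not tested.

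Across the 14 OS libraries EGLN3 ran from 5.82 to 43.2 CPM with a median of 14.8, and the 2 TGFB1 libraries were its highest. VEGFA ran from 53 to 459 CPM with a median of 89.5, highest in the 2 TGFB1 controls. CA9 ran from 0.0555 to 4.0 CPM with a median of 0.384, and both its extremes were OA libraries. Summed over the 10 genes, the level was 250 to 754 CPM in OS libraries, 988, 1410 and 950 on day 21 of ULA culture, 3505 in day 34 replicate 1 and 450 in day 34 replicate 2.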

How the data were processed

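Per the file headers, each library's matrix holds whole UMI counts per gene and cell, deposited unnormalized. The submitters' processing notes name Cell Ranger 3.0.2, bcl2fastq, Scanpy and GRCh38, and some matrix headers name version 6.0.2 of cellranger. The genes followed and all gene lists were chosen with earlier results of these data known. Only cells with 500 or more genes and no more than 20% of counts from mitochondrial genes entered, and deposited counts were summed per library. Doublets were kept. An alternative removed the cells of highest Scrublet score, a share fixed at 0.8% per 1000 deposited barcodes, in place of Scrublet's own calls. Sums were tested with edgeR 4.0.16 (quasi-likelihood test, TMM, filterByExpr), ULA and OS apart, the 14 OS libraries in 1 fit, with Benjamini-Hochberg adjustment over all genes and a threshold of 0.05. SE is the log2 fold change over the root of F, and 95% intervals use the t quantile at the fit's degrees of freedom. Clusters (scanpy 1.11.5, leiden resolution 0.5, the pathway genes left out) were named when at least 3 markers were among their top 50 genes. All 10 genes are named for day 34, TGFB1 and OA over whole libraries, and elsewhere only some of them. From each related list up to 3 called genes of smallest p per direction are named. HIF1A, EPAS1, PGK1 and GAPDH may be named throughout, and in the day 34 comparison further list genes were named after their values were seen. Alternatives were DESeq2 1.42.0, limma 3.58.1 on the mean over cells with log2(CPM + 1), no low-count filter, stricter cells, no doublets, the replicate number as a block, each library left out and leiden resolution 1.0. On simulated data the test recovered 28% of log2 changes of size 1 and 79.8% of size 2 for ULA (22212 genes), and 24% and 76.77% for TGFB1 (19104 genes). The simulated spread followed the trend over genes of similar level, not that of each gene, so these shares need not hold for the 10 genes. In the joint day 34 fit ADM at 2.90 and EGLN3 at 2.70 did not pass.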

Additional observations from a re-analysis of the deposited data

Results flagged for a closer look

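Differences between effects that passed the edgeR test of the difference itself are given on the log2 scale. The effect of OA less that of PA was 1.00 for ADM and -2.32 for ANKRD37. The day 34 effect in mesenchymal-like cells less that in other ULA cells was -1.05 for EGLN3, 2.35 for NDRG1, 2.76 for CA9, -0.66 for SLC2A1, 1.72 for BNIP3 and 1.30 for LDHA. The size of the CA9 difference is uncertain, as CA9 was at a mean of 0.17 CPM in day 21 mesenchymal-like cells. The TGFB1 effect in mesenchymal-like cells less that in other cells was -1.78 for EGLN3, 1.12 for NDRG1, 0.64 for VEGFA, -1.60 for SLC2A1 and 1.51 for BNIP3. NDRG1 and BNIP3 had a higher effect, and EGLN3 and SLC2A1 a lower one, in mesenchymal-like cells in both experiments. The share of all genes with such agreement was not counted, so the agreement is not read as a trait of the members. The ULA difference of EGLN3 was lost in 3 of 6 alternatives and that of CA9 in 2 of 6. The TGFB1 difference of VEGFA was lost in 3 of 5, and the OA less PA difference of ADM in 8 of 13.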

How the results depend on the processing

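Values are log2 fold changes for genes and numbers of called genes elsewhere, by edgeR unless named. Over the alternatives, 539 results kept direction and side of the threshold, 73 lost it, 42 gained it and 40 reversed. Scaling to library sizes without TMM was chosen after seeing the data. For day 34 against day 21, called members were 6 without a low-count filter and 0 with the mean over cells and with the replicate block; the block left 2 of all genes called, and uncalled NDRG1 was at -0.61 and BNIP3 at -0.62 in it; the share of calls that were higher was 54.0%, 66.6% with library sizes and 64.8% with the mean over cells. With TGFB1, 8 members passed without the filter, and ANKRD37 was -0.14 with library sizes and -0.10 with the mean over cells. With PA, 9 of all genes were called, and 162 without the filter, 17 with library sizes, 52 with DESeq2, 26 with the mean over cells, 16 with its 2 groups alone and 84 with the block. With OA, library sizes left 2 members and gave EGLN3 -0.22, NDRG1 -0.042, SLC2A1 -0.21 and LDHA -0.077; stricter cells gave EGLN3 -0.024 and SLC2A1 -0.045, the mean over cells EGLN3 -0.24, SLC2A1 -0.28 and LDHA -0.32, and the block CA9 -0.084. For the OA control against untreated, 111 of all genes were called, and 523 without the filter (1 member), 255 with library sizes, 712 with DESeq2, 435 with the mean over cells, 0 with 2 groups alone and 0 with the block. OA less PA kept 1 member with library sizes. Leiden resolution 1.0 gave 1 member in ULA mesenchymal-like and 0 in other ULA cells, and in mesenchymal-like cells 85 genes with TGFB1, 3 with PA and 7 for OA control against untreated, whose difference between compartments gave 0.

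Leaving out 1 library at a time gave, for day 34, 697 to 7166 genes and 0 to 9 members, with EGLN3 from -0.87 to 3.62, NDRG1 from -2.32 to 1.34, CA9 from -2.79 to 3.6, VEGFA from -0.68 to 2.61, ADM from -0.18 to 3.80, BNIP3 from -2.60 to 1.60, ANKRD37 from -0.31 to 3.00, PDK1 from -1.20 to 1.48 and LDHA from -1.96 to 0.52. TGFB1 gave 1704 to 5554 genes and 3 to 5 members, with ANKRD37 from -0.094 to 0.22, PA 0 to 20 genes, and OA 5171 to 6570 genes with EGLN3 from -0.053 to 0.27 and CA9 from -4.26 to 1.83. OA control against untreated gave 0 to 164 genes and 0 to 1 members, and OA less PA 2112 to 3388 genes and 1 to 2 members. In ULA mesenchymal-like cells it gave 1219 to 4222 genes and 0 to 10 members, with EGLN3 from -1.37 to 2.69, VEGFA from -0.35 to 2.70, SLC2A1 from -0.43 to 2.78, BNIP3 from -0.97 to 2.93 and ANKRD37 from -0.50 to 3.88. In other ULA cells it gave 1602 to 7773 genes and 0 to 9 members, with EGLN3 from -0.82 to 4.05, VEGFA from -0.74 to 2.60, ADM from -0.26 to 4.13 and ANKRD37 from -0.38 to 3.06; the difference gave 1158 to 4603 genes with ANKRD37 from -0.045 to 0.88. With TGFB1, mesenchymal-like cells gave 6 to 674 genes and 0 to 2 members, with NDRG1 from -0.49 to 0.016, SLC2A1 from -0.32 to 0.00118 and BNIP3 from -0.11 to 0.44, other cells 1876 to 5707 genes and 3 to 5 members, and the difference 1002 to 1566 genes. With PA these were 0 to 14, 0 to 19 and 6 to 52 genes. Other cells with OA gave 4681 to 5998 genes and 2 to 5 members. OA control against untreated gave 2 to 22 genes in mesenchymal-like cells, 0 to 158 genes and 0 to 1 members in other cells, and 13 to 70 for the difference. Beyond what is stated of single libraries, the cause of these changes was not tested.

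Deviations of same-numbered replicates had correlations of -0.17 and -0.27 for ULA, -0.29 for TGFB1 and 0.10 for PA. They were 0.03 for OA and -0.49 for OA control against untreated. So few libraries cannot show whether replicates were paired, and the labels give only a number. Both PA replicate 1 libraries were shallow, with medians of 1747 (control) and 2549 UMIs per cell, against 7058 and 5990 in replicate 2. With the replicate block 7 members were called with TGFB1, NDRG1, CA9 and LDHA gained and PDK1 lost, and SLC2A1 was not called on day 34; the other counts with the block are given above. Depth limits CA9 most, which had 1 to 16 UMIs in 11 libraries.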
